A study of Mus musculus with 6 samples.

Results

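White matter spots were the spots of a mouse brain section that carried the most RNA of mature oligodendrocytes. Spatial RNA sequencing captures transcripts on a grid of barcoded spots under a tissue section and counts them as unique molecular identifiers (UMIs), 1 per captured molecule. Each spot with at least 500 UMIs was given a score, the sum over the 5 myelin genes Mag, Mog, Cldn11, Opalin and Ermn of the natural log of 1 plus the UMIs per 10000, and the 150 highest-scoring spots of each section were the members. This gave 900 members of 16741 spots, and the 15841 remaining spots are called the other spots. The members were thus chosen by their measured myelin RNA. A spot covers a small area in which cells of several types may lie, so a level in a spot is not a level in a cell.

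White matter consists of bundled axons wrapped by oligodendrocytes in myelin, a membrane built of proteolipids, cholesterol and galactolipids that insulates the axon and speeds conduction. Between the axons lie fibrous astrocytes, microglia, which clear debris and are the resident macrophages of the brain, and precursors that can form new oligodendrocytes. In the ageing brain white matter is known as a site of glial activation, in which microglia take up myelin debris and astrocytes raise their intermediate filaments.

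The 6 sections were coronal, 16 µm thick, and came from frozen brains of C57BL/6J males, a common inbred mouse strain, aged 6 months (young), 18 months (middle) and 21 months (old). The labels give 2 males per age and there were 2 sections per age, which is why a section stands for 1 animal here and is named by age and replicate number (young 1, young 2 and so on). Both young sections, middle 1 and old 1 lay on slide 1. Only middle 2 and old 2 lay on slide 2, which has no young section. No outlined anatomy was used, and the members may come from different tracts in different sections.

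The members of a section summed to between 1730313 and 2530212 UMIs, with a median of 10536 to 16597 UMIs per spot against 20954 to 31142 in the other spots. Mitochondrially encoded genes took 8.68% to 12.3% of the members' UMIs and Malat1, a nuclear RNA, 0.0359% to 0.145%. Exact permutation tests over 90 assignments gave p = 0.133 and 0.533, where the smallest possible p is 0.067. The mitochondrial share was higher in both middle sections (12.3% and 10.6%) than in the young (10.3% and 9.55%) and old ones (9.71% and 8.68%). The Malat1 shares of the ages overlapped. The numbers of members with a spot barcode in common ran from 1 to 67 between pairs of sections, and no member barcode was in all 6 sections. Barcodes mark grid positions, which are the same on every capture area, and 1920 of the 3389 barcodes were in all 6 sections.

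The label was checked against the 37 oligodendrocyte and myelin genes outside the rule. All were detected in the members, and their summed level was 8.03 to 10.8 times that of the other spots of the same section. The genes outside the rule with the highest smallest ratio to the other spots included C4b, Trf, Anln, Sec14l5, Apod, Mal, Klk6, Gjb1, Fa2h and Tmem63a. Trf, the iron carrier transferrin, was 11.1 to 14.4 times higher in members, and Gjb1, a connexin of oligodendrocyte gap junctions, 10.1 to 13.9 times. C4b, a complement factor, headed this order with ratios of 11.7 to 28.6. These ratios follow from the choice of members and carry no test.

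The members' scores differed between sections. The score of the last spot taken and of the first spot left out was 11.80 and 11.78 in young 1, 12.20 and 12.19 in young 2, 10.63 and 10.60 in middle 1, 10.38 and 10.36 in middle 2, 11.51 and 11.51 in old 1, and 11.50 and 11.47 in old 2. The median score of members was 13.09 and 13.07 in young, 11.68 and 11.65 in middle and 12.60 and 12.45 in old sections. The rule genes themselves were lowest in the middle sections: Mag, the myelin-associated glycoprotein, stood at 2357 and 2174 CPM (counts of a gene per 1000000 UMIs) in young, 1677 and 1762 in middle and 2209 and 2070 in old members. Mog, a glycoprotein of the outer myelin surface, stood at 1184 and 1172, 831 and 852, and 991 and 940 CPM in the same order. The rule used these values, so they are described without a test.

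RNA of neurons, which is abundant in grey matter, ran the opposite way over the ages. The 25 neuronal genes of the list took 0.160% and 0.2001% of members' UMIs in young, 0.292% and 0.309% in middle and 0.245% and 0.230% in old sections, against 1.57% to 1.74% in the other spots. The ages did not overlap, and the exact permutation test over 90 assignments gave p = 0.067, the smallest that 2 sections per age allow. Within a section the members were uneven, with a central 80% range of 0.0601% to 0.291% in young 1 and 0.100% to 0.559% in middle 2. All comparisons with the middle sections are therefore given with this share beside them. They were repeated on members with a neuronal share under 0.2%, of which there were 116 and 102 in young, 69 and 57 in middle and 80 and 94 in old sections.

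**Figure D1:**
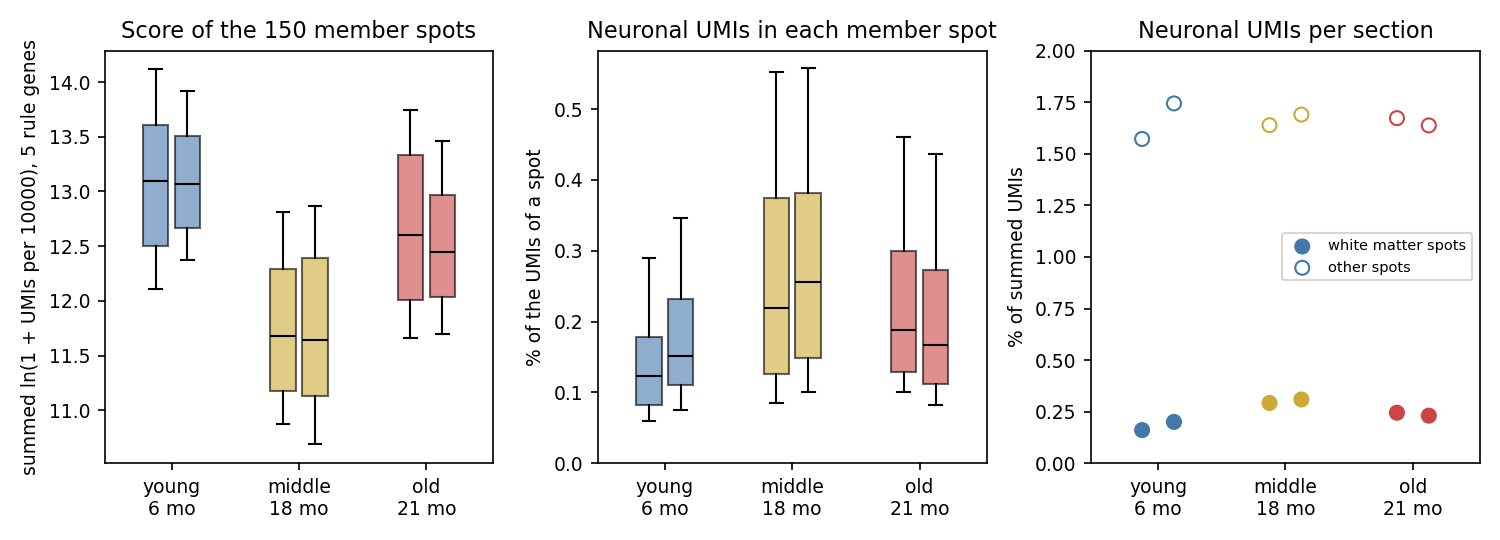
Boxes show the score (left, natural log units) and the neuronal share of UMIs (middle, percent) of the 150 members of each section, with medians, quartiles and the central 80% as whiskers; the right panel shows the neuronal share of summed UMIs per section for members (filled) and other spots (open). Middle sections have the lowest scores and the highest neuronal shares, 0.292% and 0.309%, and all members' sums lie far under the other spots.

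From 6 to 21 months 6 of 10 complement genes, 15 of 25 genes of activated microglia and 7 of 12 of reactive astrocytes rose in the white matter spots, and 6 of 19 heat shock genes fell. Summed members were compared between ages with edgeR's quasi-likelihood test over 11449 genes, with adjusted p under 0.05 as the threshold. Between old and young, 235 genes passed, 149 higher and 86 lower with age, which is 2.05% of the genes tested (1.3% higher and 0.751% lower). Over all genes the median log2 fold change was 0.0045. The gene lists were chosen with earlier results of these data known, so their counts are not independent of those results. The members' UMIs were summed per section, so that more cells of a type and more RNA per cell cannot be told apart.

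The complement gene with the highest level was C4b. C4b (ENSMUSG00000073418, chr17:34728380-34743882 on the minus strand, GRCm38), which is cleaved on activation of the classical pathway, was at 248 and 158 CPM in young, 428 and 435 in middle and 1291 and 1308 in old members. Each age lay above the one before it without overlap. The old to young log2 fold change was 2.67 ± 0.15 (SE; edgeR, adjusted p = 1.97e-08, n = 2 sections per age). In the 75 members of each section with the lowest neuronal share it was 2.56 and did not pass (edgeR, adjusted p = 0.165). In the other spots the same gene was at 18.5 and 13.3 CPM in young and 44.5 and 60.8 in old sections.

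The chains of C1q, which starts the classical pathway and is made by microglia, rose together. C1qa was at 209 and 218 CPM in young and 439 and 547 in old members (log2 fold change 1.21 ± 0.12, edgeR adjusted p = 6.77e-07). C1qb and C1qc rose by 1.11 and 1.08 on the log2 scale. C3, the factor on which all complement pathways meet, rose from 5.39 and 6.46 to 21.2 and 33.6 CPM (log2 fold change 2.22, edgeR adjusted p = 0.000147). Itgb2, the beta chain of complement receptor 3, rose by 1.59. Of the 10 complement genes tested 6 rose and none fell, and the list's median log2 fold change was 1.16. Among members under the neuronal limit 8 of 10 passed, with a median of 1.21. Of all 9899 genes tested there 172 passed, 117 higher and 55 lower.

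Of the 25 tested genes of disease-associated microglia, a state first described around amyloid plaques and in which lipid-handling and lysosomal genes are high, 15 rose and none fell, with a median log2 fold change of 1.18. Cst7, which encodes the protease inhibitor cystatin F, was at 1.08 and 2.35 CPM in young, 7.20 and 14.8 in middle and 29.8 and 39.0 in old members (log2 fold change 4.31 ± 0.43, edgeR adjusted p = 8.14e-07). Lgals3, the lectin galectin-3, was at 5.39 and 4.70 CPM in young and 22.3 and 41.9 in old members (2.68 ± 0.35, edgeR adjusted p = 4.91e-05). Both genes were low in young sections, and their old sections did not overlap the young ones.

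The receptor of this state and its partner rose too. Trem2, a lipid-sensing receptor of microglia, went from 61.4 and 44.0 CPM to 135 and 146 (log2 fold change 1.41 ± 0.16, edgeR adjusted p = 6.03e-06), and Tyrobp, its signalling adaptor, from 143 and 150 to 360 and 386 CPM (1.35). The lysosomal proteases Ctsd, Ctsz, Ctss and Ctsb rose by 1.18, 1.02, 0.92 and 0.59 on the log2 scale, although the calls of Ctss and Ctsb were lost without old 2 (0.82 and 0.43). The lysosomal membrane protein Cd68 rose by 1.48 and the surface glycoprotein Cd52 by 1.67. Apoe, the lipid carrier of glia, rose from 3158 and 2884 to 5371 and 5994 CPM (0.91, edgeR adjusted p = 5.7e-05). Itgax, an integrin of activated microglia and dendritic cells, had no UMI in either young section and 12.6 and 12.7 CPM in the old ones, at least 14.99-fold higher if 3 counts are set for the young members together. Lpl, lipoprotein lipase, rose by 1.78, but without old 2 it was no longer past the threshold (1.36). Among members under the neuronal limit 18 of 24 genes of this list rose, with a median of 1.23, against 117 of all 9899 genes.

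Of 13 tested genes of resting microglia 4 rose and none fell, with a median log2 fold change of 0.46. Among them were Fcrls, an Fc receptor-like protein of microglia (1.48), Cx3cr1, the fractalkine receptor (0.92) and Csf1r, the receptor of the growth factor CSF1 (0.47). The Cx3cr1 call was lost without old 1 (0.87) and that of Csf1r without any 1 of the 4 young and old sections (0.43 to 0.49). A pair of further genes was picked after the values were seen. P2ry12, the ADP receptor that marks resting microglia, stood at 56.6 and 55.2 CPM in young and 52.1 and 43.8 in old members (log2 fold change -0.23, edgeR adjusted p = 0.58). Tmem119 stood at 39.3 and 38.2 against 49.3 and 41.4 CPM (0.22, edgeR adjusted p = 0.66). For neither gene was a change detectable with 2 sections per age.

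Other immune genes rose as well. Cd74, the invariant chain of MHC class II, rose from 4.31 and 3.52 to 24.1 and 23.4 CPM (log2 fold change 2.57 ± 0.33, edgeR adjusted p = 4.02e-05), the only one of 4 tested class II genes to pass. Crlf2, a chain of the receptor of thymic stromal lymphopoietin, rose from 5.39 and 5.87 to 26.4 and 28.2 CPM (2.27), A2m, a broad protease inhibitor, by 2.24, Capg, an actin-capping protein of macrophages, by 2.00, and Fcgr2b, an inhibitory Fc receptor, by 1.96. The Fcgr2b call was lost without old 2, at 1.54.

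MHC class I did not pass. None of its 10 tested genes was called by edgeR (1586 of all genes had an unadjusted p under 0.05, and DESeq2 called 98), and the values depended on 1 section. B2m, the common light chain, was at 167 CPM in young 1 and 395 in young 2, against 377 and 469 in old members. H2-D1 was at 63.0 and 189 against 183 and 203 CPM, and H2-K1 at 62.5 and 104 against 105 and 127. The summed list stood at 358 CPM in young 1 and 644 to 972 CPM in the other 5 sections. Without young 2, B2m, H2-D1 and H2-K1 passed with log2 fold changes of 1.33, 1.60 and 0.89, where with both young sections they had 0.60, 0.63 and 0.49. None of 16 interferon-response genes passed, with a median of 0.045.

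**Figure D2:**
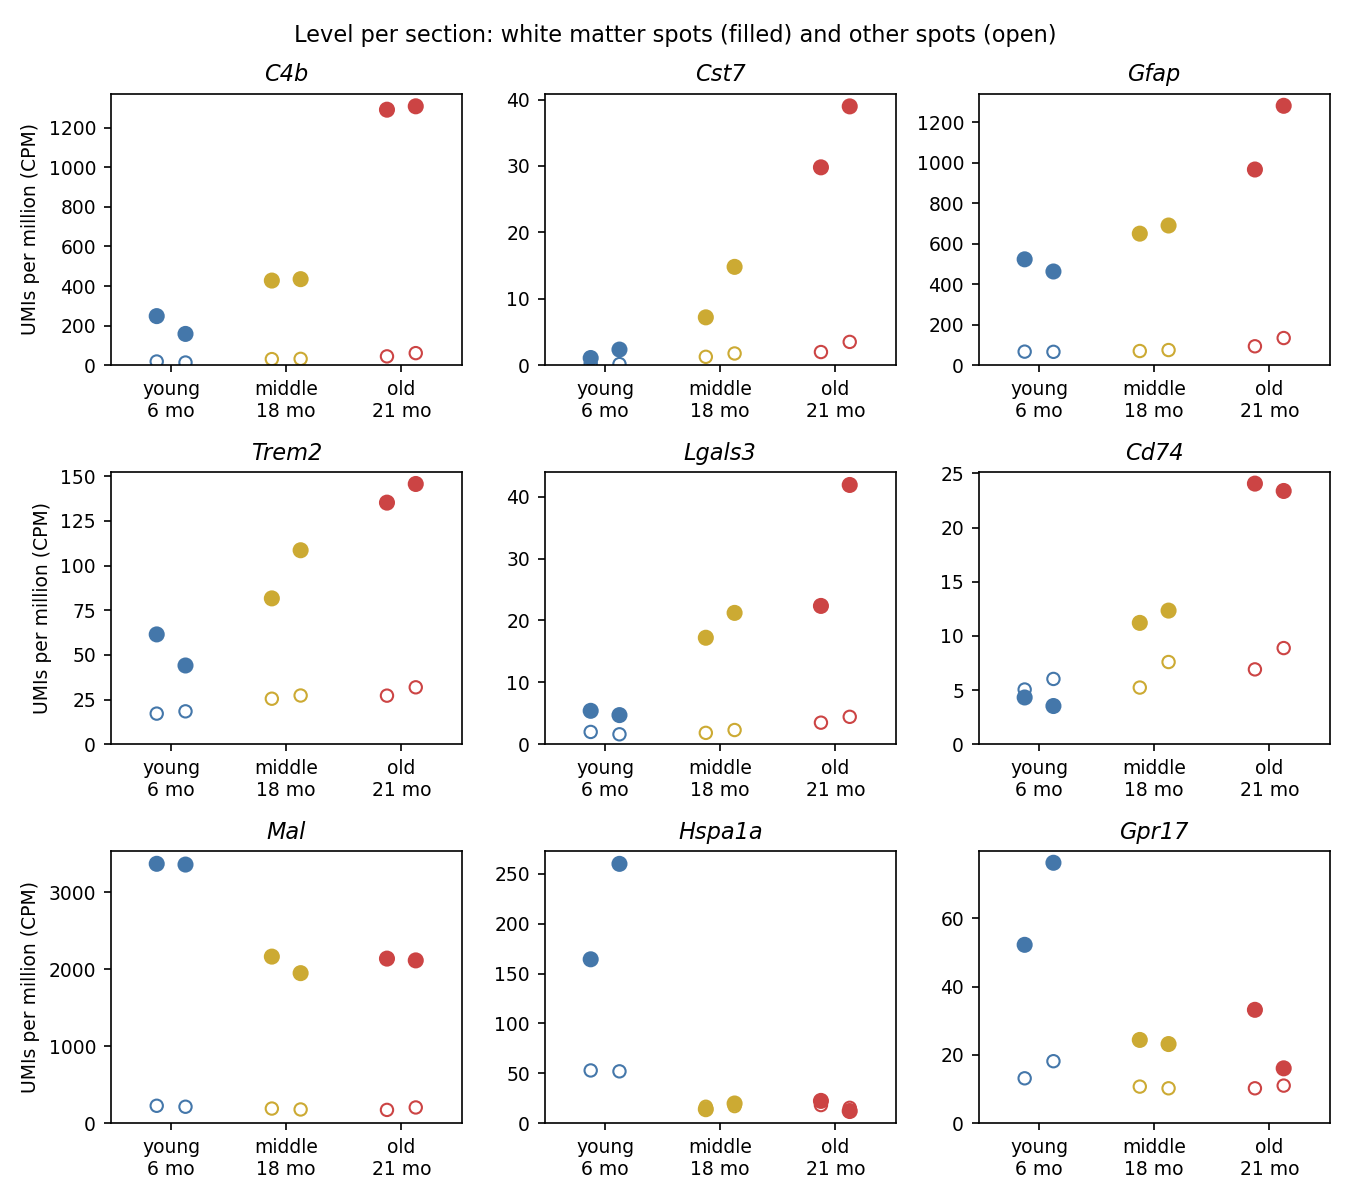
Each panel shows 1 gene: its level in CPM (vertical axis, from 0) in the summed members (filled) and the summed other spots (open) of each section, by age. C4b, Cst7, Gfap, Trem2, Lgals3 and Cd74 are higher in both old than in both young members; Mal, Hspa1a and Gpr17 are lower.

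Genes of reactive astrocytes were higher in old members. Gfap, the intermediate filament of astrocytes, was at 523 and 463 CPM in young, 650 and 690 in middle and 966 and 1281 in old members (log2 fold change old to young 1.19 ± 0.12, edgeR adjusted p = 1.13e-06). Of 12 tested reactive astrocyte genes 7 rose and none fell, with a median of 1.67. Osmr, the oncostatin M receptor, rose from 2.16 and 1.76 to 17.2 and 16.6 CPM (3.06), Timp1, an inhibitor of matrix proteases, from 1.08 and 1.76 to 13.2 and 19.5 CPM (3.50) and Aspg, an asparaginase, by 2.48. Lcn2, a siderophore-binding protein, had no UMI in young members and 6.87 and 5.36 CPM in old ones, at least 7.25-fold higher by the same floor. The Lcn2 call was lost without any of young 1, young 2 or old 2 (6.62, 6.64 and 6.76), and the Aspg call without old 2 (1.99). S1pr3, also called in this list, lost its call without young 2 or old 2 (1.29 and 1.12). Vim, the last of the called genes, is described below.

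Of 18 tested general astrocyte markers 4 rose and none fell, with a median of 0.33: Aldh1l1, an enzyme of folate metabolism (0.79), Mlc1, a membrane protein of astrocyte endfeet (0.54), Clu, the secreted chaperone clusterin (0.44), and Slc1a3, a glutamate transporter (0.37). The calls of Aldh1l1 and Mlc1 were lost without young 2 or old 2 (0.69 and 0.69 for Aldh1l1, 0.46 and 0.34 for Mlc1). Those of Clu and Slc1a3 were lost without any 1 of the 4 young and old sections, at log2 fold changes of 0.32 to 0.53 and 0.34 to 0.39.

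Several large changes did not pass, and in these the sections of an age differed among themselves. Serpina3n, a protease inhibitor of reactive astrocytes and oligodendrocytes, was at 44.2 and 17.0 CPM in young, 74.4 and 86.8 in middle and 263 and 378 in old members (log2 fold change 3.37 ± 0.42, edgeR adjusted p = 0.057). Lyz2, the lysozyme of myeloid cells, was at 30.7 and 30.5 CPM in young and 192 and 351 in old members (3.16 ± 0.45, edgeR adjusted p = 0.075), and Gpnmb, a glycoprotein of lipid-laden macrophages, at 9.16 and 2.94 against 18.3 and 40.4 (2.27, edgeR adjusted p = 0.051). In all 3 both old sections lay above both young ones, and each gene passed under some alternatives, with adjusted p under 0.05 in 9 of 21, 10 of 21 and 11 of 19. Vim, an intermediate filament, passed narrowly (1.60, edgeR adjusted p = 0.046), and its call was lost without any of young 1, young 2, middle 1 or middle 2 (1.81, 1.40, 1.59 and 1.59). Neat1, a nuclear long RNA, rose from 567 and 683 to 1204 and 1279 CPM (0.99, edgeR adjusted p = 5.07e-06).

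Of the 37 tested myelin genes outside the rule 5 fell and none rose between 6 and 21 months, with a median log2 fold change of -0.18. Mal, a proteolipid of myelin sorting, stood at 3368 and 3358 CPM in young, 2163 and 1948 in middle and 2137 and 2113 in old members (old to young -0.66 ± 0.11, edgeR adjusted p = 0.00096). Tspan2, a tetraspanin of myelin (-0.50), Fa2h, which hydroxylates the fatty acids of myelin lipids (-0.44), Ugt8a, which makes galactosylceramide (-0.43), and Cryab, a small chaperone of oligodendrocytes (-0.42), also fell. Without old 1 or without old 2 the last 4 of these no longer passed, with log2 fold changes of -0.38 to -0.52. Young 1 mattered as well, for Fa2h (-0.40) and Ugt8a (-0.41), and young 2 for Cryab (-0.42).

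Mbp, myelin basic protein, did not pass. It was at 23763 and 23636 CPM in young and 20536 and 18921 in old members (log2 fold change -0.26, edgeR adjusted p = 0.36), with both old values under the young ones. Il33, an alarmin of oligodendrocytes and astrocytes, stood at 576 and 531 against 609 and 590 CPM (0.12, edgeR adjusted p = 0.68). The neuronal share, which counts against a fixed total, was 0.057 percentage points higher in old than in young members, and its part in the lower myelin values was not tested. Old members also had lower scores, with a median log2 fold change of -0.20 for the rule genes. The part of the choice by score in the lower myelin values was not tested either. Among members under the neuronal limit the median of the 37 genes was -0.14, with 1 gene higher and 2 lower past the threshold. Of all 9899 genes tested there 117 were higher and 55 lower.

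Of 16 tested precursor genes 1 fell. Gpr17, a receptor of committed oligodendrocyte precursors just before they mature, stood at 52.3 and 76.3 CPM in young, 24.4 and 23.2 in middle and 33.2 and 16.1 in old members (old to young -1.41 ± 0.26, edgeR adjusted p = 0.011). Both older ages lay under the young one, but without old 2 the old to young change was -0.95 and no longer passed. Pdgfra, the growth factor receptor of early precursors, was picked after its values were seen and stood at 25.9 and 28.8 against 30.9 and 22.4 CPM, with overlapping ages. None of 20 cholesterol synthesis genes passed by edgeR between old and young, with a median of -0.23.

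Heat shock genes were high in young members. Hspa1a and Hspa1b encode the inducible HSP70 chaperones, which refold proteins under stress, and lie as near-identical copies on chromosome 17 (Hspa1a, ENSMUSG00000091971, chr17:34969190-34972156, and Hspa1b, ENSMUSG00000090877, chr17:34956436-34959238, both on the minus strand, GRCm38). Reads that fit both copies could be split or lost in counting, so the 2 values are uncertain apart. Their promoters and those of the 2 other fallen genes with a match are shown because the heat shock factor HSF1, which drives these genes under stress, binds inverted repeats of the unit GAA. The 150 bases before the RefSeq start (GRCm38.p6) are given from 5′ to 3′ on the gene's strand, with the motifs GAANNTTC or TTCNNGAA, which read the same on both strands, in capitals.
Hspa1a (chr17:34972157-34972306, minus strand): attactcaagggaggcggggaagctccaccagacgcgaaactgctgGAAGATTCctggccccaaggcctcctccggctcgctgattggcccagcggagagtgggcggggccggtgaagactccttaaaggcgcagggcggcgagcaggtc
Hspa1b (chr17:34959239-34959388, minus strand): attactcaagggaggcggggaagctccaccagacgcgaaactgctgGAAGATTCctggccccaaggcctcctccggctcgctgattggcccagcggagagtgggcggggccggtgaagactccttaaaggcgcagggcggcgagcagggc
Hsph1 (chr5:149636337-149636486, minus strand): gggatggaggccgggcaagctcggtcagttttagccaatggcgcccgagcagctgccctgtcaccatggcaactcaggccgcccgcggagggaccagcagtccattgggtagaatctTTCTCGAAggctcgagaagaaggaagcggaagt
Dnaja1 (chr4:40722318-40722467, plus strand): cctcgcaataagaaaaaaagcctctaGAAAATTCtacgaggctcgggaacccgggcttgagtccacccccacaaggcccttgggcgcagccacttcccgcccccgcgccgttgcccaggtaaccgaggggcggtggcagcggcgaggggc

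The stretches of Hspa1a and Hspa1b differ at 1 base, and both hold the motif from 104 to 97 bases before the start. In Hsph1 it lies from 33 to 26 and in Dnaja1 from 124 to 117 bases before the start. Of the 6 heat shock genes that fell, all matched the RefSeq table and 4 held either motif within 250 bases before a listed start, against 14.5% of the 27025 genes of the table. Of the 19 genes of the list 16 matched and 8 held a motif. A match is a description of these letters and not evidence of binding.

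Hspa1a was at 164 and 260 CPM in young, 14.0 and 19.7 in middle and 22.3 and 12.2 in old members (old to young log2 fold change -3.64 ± 0.33, edgeR adjusted p = 0.0019). Hspa1b was at 155 and 234, 32.0 and 17.8, and 17.8 and 11.7 CPM (-3.74 ± 0.34, edgeR adjusted p = 0.0016). For both genes the young sections lay far above every section of the other ages. With slide as a block Hspa1a did not pass (-3.57, edgeR adjusted p = 0.087), where slide 2 holds no young section, nor did it in the 75 members lowest in neuronal share (-3.90, edgeR adjusted p = 0.062). That of Hspa1b was lost in the 300 highest-scoring spots (-3.62, edgeR adjusted p = 0.106). The co-chaperones Dnajb1 (-1.35) and Dnaja1 (-0.59), the HSP110 protein Hsph1 (-1.08) and Ahsa1, an activator of HSP90 (-0.61), fell as well, which makes 6 of 19 with a median of -0.37. The Ahsa1 call was lost without young 1 or old 2 (-0.49 and -0.54) and that of Dnaja1 without old 2 (-0.52).

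Genes outside the heat shock list fell too. Nfkbia, the inhibitor of NF-kappaB, was at 123 and 127 CPM in young and 39.0 and 40.4 in old members (log2 fold change -1.66 ± 0.14, edgeR adjusted p = 7.19e-08), and Ddit4, a stress-induced inhibitor of mTOR, at 128 and 190 against 67.0 and 53.6 (-1.40). Sgk1, a kinase induced by glucocorticoids, was at 777 and 1276 CPM in young, 145 and 242 in middle and 188 and 207 in old members. It did not pass, and its young sections lay far apart (-2.37 ± 0.40, edgeR adjusted p = 0.13). Of 14 tested glucocorticoid-response genes 2 fell, Klf9 and the Nfkbia named above, and 1 rose, Mt2, with a median of -0.50. The Klf9 call was lost without young 2, old 1 or old 2 (-0.49, -0.53 and -0.74). That of Mt2 was lost without young 1, old 1 or old 2 (0.29, 0.42 and 0.42). None of 10 immediate early genes passed. Arl4d, a small GTPase (-1.69), Plekhf1, an endosomal protein (-1.19), Polr3e, a subunit of RNA polymerase III (-1.10), and Btbd17 (-1.11) complete the 10 largest falls among called genes of at least 10 CPM whose ages did not overlap. The Polr3e call was lost without either old section (-1.11 and -1.11), and that of Btbd17 without young 2, old 1 or old 2 (-0.94, -1.26 and -0.97).

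Leaving out 1 section moved the number of called genes from 235 to between 93 and 274, and the count of 93 came without old 2. With slide as a block it was 172. With the neuronal share as a covariate 33 genes passed, of which 23 were among the 235. This share was highest in the middle sections and did not overlap between ages, so the fit can hardly separate it from the age group. Of 65 called genes examined singly, 46 lost their call with this covariate, 11 with slide as a block, 15 in the 300 highest-scoring spots and 13 of 63 in the 75 members lowest in neuronal share. C1qa, Trem2, Ctsd, Ctsz, Cd52, Gfap, Nfkbia, Ddit4, Plekhf1 and Dnajb1 were called under all 21 alternatives tried.

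**Figure D3:**
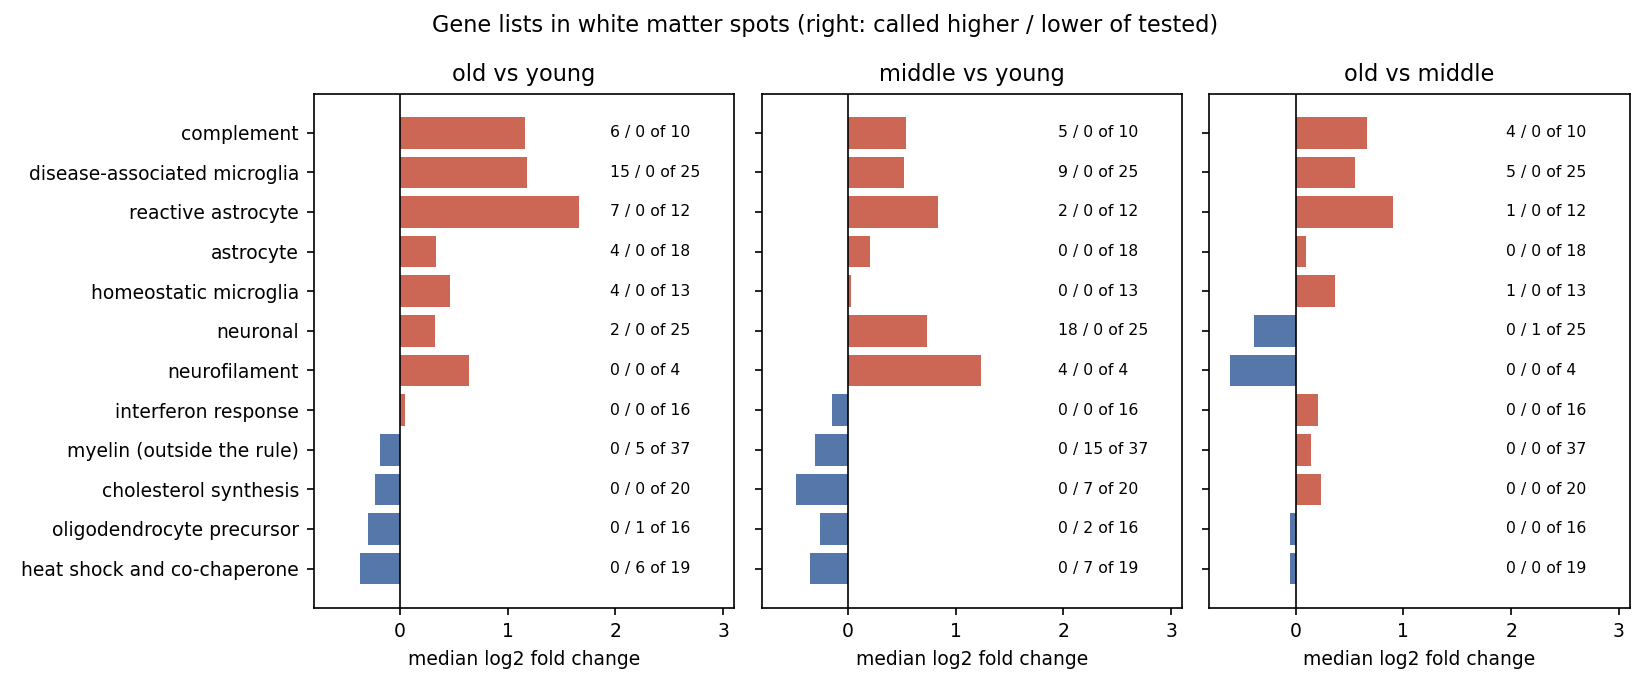
Bars give the median log2 fold change of the tested genes of each list (horizontal axis) in 3 comparisons of the summed members, and the text beside them the number of genes called higher and lower of those tested. Old against young, 15 of 25 disease-associated microglia, 6 of 10 complement and 7 of 12 reactive astrocyte genes are called higher; middle against young, 18 of 25 neuronal and 4 of 4 neurofilament genes are.

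At 18 months part of the glial change was already present, beside a larger neuronal share. Between middle and young 437 genes passed, 246 higher and 191 lower, which is 3.82% of those tested (2.15% higher and 1.67% lower). The same young sections enter this comparison and the one with the old sections. Cst7 (log2 fold change 2.62 ± 0.54, edgeR adjusted p = 0.0069), Lgals3 (1.90), Crlf2 (1.57), Cd74 (1.56), Trem2 (0.83), Tyrobp (0.80) and C4b (1.08 ± 0.15, edgeR adjusted p = 0.00069) rose. Of 25 disease-associated microglia genes 9 rose, with a median of 0.52, and of 10 complement genes 5, with a median of 0.54. Among members under the neuronal limit the counts were 8 of 24 and 4 of 10, with medians of 0.60 and 0.76. Of all 9899 genes tested there 70 passed, 41 higher and 29 lower. The Cst7 call was lost without young 1 (2.15) or middle 2 (2.05), those of Lgals3 and Trem2 without middle 2 (1.75 and 0.62), that of Crlf2 without young 1 (1.50) and that of Cd74 without any of the 4 young and middle sections (1.43 to 1.71).

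Heat shock genes were already low at 18 months. Hspa1a (-3.67 ± 0.32, edgeR adjusted p = 0.0024), Hspa1b (-2.93), Dnajb1 (-1.66) and Nfkbia (-1.51) fell, as did Gpr17 (-1.42) and Tmem163, a zinc transporter (-1.57). Of the 19 heat shock genes 7 fell, with a median of -0.35. Without middle 2 the Hspa1a change was larger and no longer passed (-3.91). Nor did it pass with slide as a block (-3.60), in the 75 members lowest in neuronal share (-3.78) or under the neuronal limit (-3.66). Gpr17 did not pass without either middle section (-1.46 and -1.39). Of 12 reactive astrocyte genes 2 rose, Gfap (0.44) and Timp1 (2.23). Both calls were lost without any 1 of the 4 young and middle sections (0.36 to 0.53 and 1.90 to 2.60).

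Neuronal and neurofilament genes were higher in middle than in young members, and some myelin and cholesterol genes were lower. Of 25 neuronal genes 18 rose, with a median of 0.73, among them Snap25, a synaptic vesicle fusion protein (185 and 206 against 341 and 350 CPM, 0.82), and Camk2a, a kinase of excitatory synapses (1.04). All 4 neurofilament genes rose, with Nefl at 1.18 and Ina at 1.43. Egr1, an immediate early gene of neurons (1.08), Dusp14, a phosphatase (2.07), and Ramp3, a receptor-modifying protein (2.06), rose too, and in all 3 the other spots stood above the members. Of 37 myelin genes 15 fell, with a median of -0.31, and of 20 cholesterol synthesis genes 7, with a median of -0.48. Examples of the fallen genes were Mal (-0.71), Fa2h (-0.56) and Hmgcs1, the synthase at the head of the cholesterol pathway (-0.62). The rule genes, on which the score rests, had a median of -0.52 here, and the part of the lower score in these falls was not tested.

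The neuronal share of the members stood at 0.160% and 0.2001% in young and 0.292% and 0.309% in middle sections. The neuronal limit was set on these neuronal genes, so their values under it are not given. Among members under it no cholesterol gene passed by edgeR, with a median of -0.36, and 3 of 37 myelin genes fell, with a median of -0.21. The number of all genes called was then 70. Leaving out 1 section gave 122 to 408 genes, with 160 without young 1, 237 without middle 1 and 122 without middle 2. Hmgcs1 did not pass without young 1 (-0.44) or middle 2 (-0.54). The Egr1 call was lost without young 1 (0.90) and that of Dusp14 without middle 2 (1.83).

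Between 18 and 21 months 23 genes passed, 19 higher and 4 lower, which is 0.201% of those tested (0.166% higher and 0.0349% lower). Among those that rose were glial genes. C4b rose by 1.59 ± 0.14 (edgeR, adjusted p = 2.35e-05), Cst7 by 1.69, C1qa by 0.66, Gfap by 0.75, Cd52 by 0.84 and Ctsd by 0.62. The counts were 5 of 25 disease-associated microglia genes (median 0.55), 4 of 10 complement genes (0.66) and 1 of 12 reactive astrocyte genes (0.90).

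Another 4 genes passed here but not between young and middle; the difference between these changes was not tested. Nupr1, a stress-induced nuclear protein, was at 9.70 and 10.6 CPM in young, 13.6 and 10.4 in middle and 33.2 and 34.1 in old members (old to middle 1.47 ± 0.23, edgeR adjusted p = 0.0032). Cebpd, a transcription factor of acute inflammation, was at 28.0 and 25.8, 25.2 and 34.5, and 68.2 and 68.7 CPM (1.21), Cela1, an elastase, at 23.7 and 12.9, 21.998 and 22.695, and 55.6 and 51.6 (1.26), and Fcrls at 16.2 and 17.0, 20.8 and 20.2, and 41.8 and 50.2 (1.17). In these 4 genes the young and middle values lay close together or overlapped, and the old values stood apart.

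Of the 4 genes that fell, Hpca is a neuronal calcium sensor (-0.82), Gad1 makes the transmitter GABA (-0.75) and Cplx1 is the synaptic protein complexin 1 (-0.71). The fourth, Lgi2, lay under the level set for naming genes and was picked after its values were seen. It was at 14.0 and 17.3 CPM in middle and 5.16 and 4.38 in old members (-1.70 ± 0.35, edgeR adjusted p = 0.033), and its call was lost without any 1 of these 4 sections (-1.55 to -1.85). The neuronal share was also lower in old than in middle members, and its part in these falls was not tested. Among members under the neuronal limit 5 genes passed. With the neuronal share as a covariate 12 passed, none of them among the 23. The count moved with single sections: 4 genes passed without middle 1 and 10 without old 2, against 39 without old 1 and 83 and 91 without young 1 or young 2. Of the named genes C4b kept its call without each section, while Cst7, C1qa, Cd52, Ctsd, Gfap and Fcrls lost theirs without middle 1 or old 2, Cela1 and Cebpd without middle 1, and Nupr1 without old 2. The changes of these genes then ran from 0.48 to 1.46. Hpca did not pass without middle 1, old 1 or old 2 (-0.65, -0.85 and -0.82), Gad1 without middle 1, middle 2 or old 2 (-0.88, -0.62 and -0.54) and Cplx1 without middle 2 or old 2 (-0.51 and -0.62).

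The change from 6 to 21 months differed between white matter and the other spots for many of the same gene groups. The difference of the changes was fitted on members and other spots together, each section being a block, over 17316 genes. Of these 363 passed (2.1%): in 195 the white matter change was the more positive (1.13%) and in 168 the more negative (0.97%). Serpina3n went from a mean of 30.6 to 321 CPM in members and from 13.7 to 25.3 in other spots. The difference of its log2 changes was 2.49 ± 0.16 (edgeR, adjusted p = 3.41e-51). Its young members lay far apart between sections, as given above, a spread that this SE and p do not reflect. With edgeR's newer quasi-dispersion, another estimate of the spread, 115 genes passed in place of 363. Lyz2 went from 30.6 to 271.5 CPM in members and from 10.55 to 25.8 in other spots (1.84). Cd74 (2.07), C3 (2.04), Crlf2 (2.02) and Lpl (1.93) also differed. In the other spots Lpl had means of 14.5 CPM at 6 and 13.2 at 21 months and Crlf2 of 22.5 and 26.9, all above the members' young means of 5.07 and 5.63.

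By list, the change was more positive in white matter for 14 of 27 disease-associated microglia genes (median difference 0.67), 7 of 12 complement genes (0.67), 8 of 14 reactive astrocyte genes (1.43) and 5 of 18 astrocyte genes (0.29). C4b differed by 0.97 ± 0.10, with log2 ratios of the age means of 2.68 in members and 1.73 in other spots. For Cst7 the difference was 0.53 ± 0.79 (edgeR, adjusted p = 0.9): in the other spots it went from 0.221 and 0.158 to 1.98 and 3.50 CPM. Many of the list calls rested on single sections. Leaving out 1 section lost those of Trem2, Ctss, Cd68, Lgals3, Gpnmb and Spp1 in the microglia list. It also lost those of Gfap and Timp1 among reactive astrocyte genes and of Aqp4 and Mlc1 among astrocyte genes. Trem2 was at 0.37 and Gpnmb at 0.55 without young 2, and Ctss at 0.24 without young 1. The C3 call was lost without young 1 or old 2 (0.90 and 1.70) and that of Lpl without old 2 (1.50).

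The change was more negative in white matter for 17 of 37 myelin genes and more positive for 1, Klk6, a secreted protease of oligodendrocytes, with a median of -0.31. The rule genes, by which the members were chosen, had a median difference of -0.27, and old members had lower scores than young ones. The part of this choice in the differences of the myelin genes was not tested. The call of Klk6 (0.46) was lost without young 1, old 1 or old 2 (0.23, 0.41 and 0.53). Of 19 heat shock genes 7 had a more negative and none a more positive change in white matter. The differences were -1.99 for Hspa1a and -1.96 for Hspa1b, and both had lower means in the old other spots too, going from 52.4 to 16.8 and 49.9 to 14.6 CPM. Sgk1 (-1.25), Arl4d (-1.22), Itih3, a chain that stabilises hyaluronan matrix (-1.13), and Ctps, which makes the nucleotide CTP (-1.06), also differed. Without old 2 the Ctps difference did not pass (-1.01). Without old 2 the number of genes was 124, and with slide as a block 180.

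**Figure D4:**
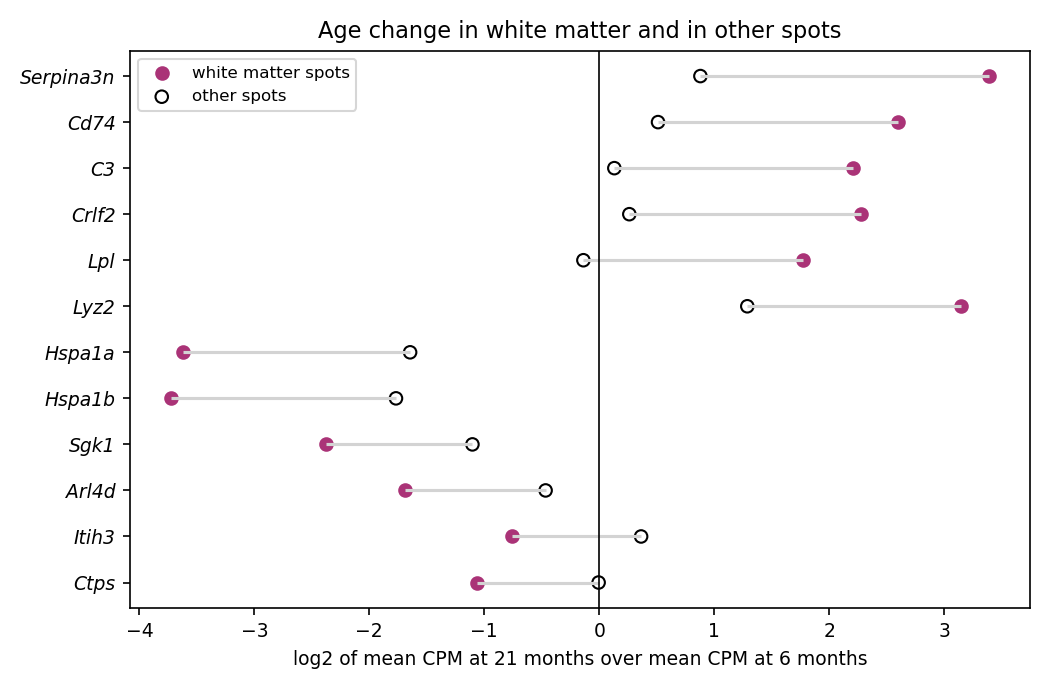
Points give the log2 of the mean CPM at 21 months over that at 6 months (horizontal axis) in members (filled) and other spots (open) for the 6 genes in each direction with the largest difference among those that passed, had a mean of at least 10 CPM in members and had ratios of members to other spots that did not overlap between young and old. Serpina3n rises by 3.39 in members and 0.88 in other spots, and Hspa1a falls in both, by 3.62 and 1.65.

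The age change was followed along the score, from the spots richest in myelin RNA to the rest of the section. For C4b the ratio of mean CPM, old over young, was 8.52 in ranks 1 to 50, 8.65 in 51 to 100, 4.14 in 101 to 150, 5.16 in 151 to 300, 2.99 in 301 to 600 and 2.75 from rank 601. In old sections its mean was 1579, 1462 and 955 CPM in the 3 groups of members and 27.5 from rank 601. In young sections it was 185, 169 and 231 CPM in the same groups of members. For Serpina3n the ratio was 14.7, 18.4, 5.68, 7.45, 2.43 and 1.52 over the 6 groups, highest in ranks 51 to 100. For Lyz2 it was 10.1, 9.24, 9.10, 7.77, 4.42 and 1.76. Gfap had ratios of 2.44, 2.70 and 2.15 in the members and 1.52 from rank 601. For Hspa1a the ratio was 0.0796, 0.109 and 0.0659 in the members, 0.103 in ranks 151 to 300, 0.168 in 301 to 600 and 0.377 from rank 601. For both genes the ratio in ranks 151 to 300 lay within the range of the members. These ratios are descriptions without a test, since the score set the groups.

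**Figure D5:**
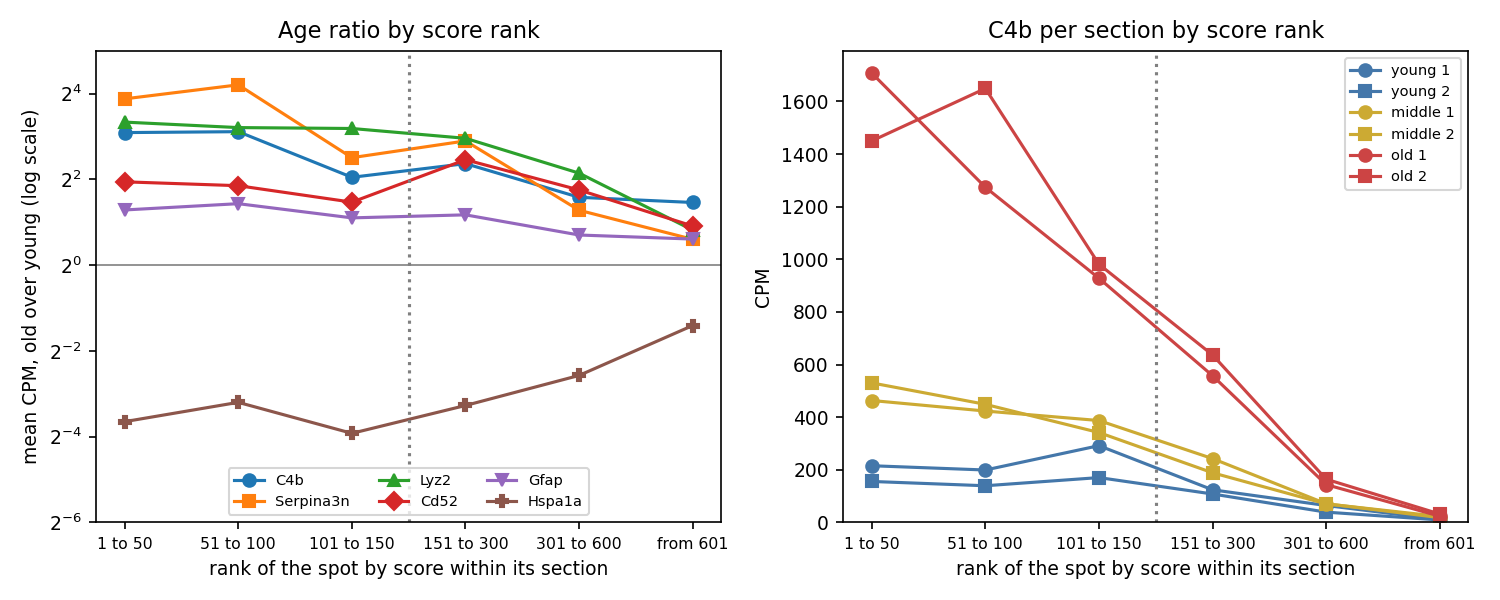
Left, the ratio of mean CPM of old over young sections (log axis) for 6 genes in groups of spots by score rank within the section; right, the CPM of C4b per section in the same groups. The dotted line marks the limit of the members, and the age ratio of C4b is 8.52 at the top ranks and 2.75 from rank 601.

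The rise was also seen as more spots with a transcript. To compare depths, every spot was thinned to 5000 UMIs, which left out 1 to 9 members and 10 to 41 other spots per section. At that depth C4b was found in 43.0% and 42.7% of young, 84.5% and 82.1% of middle and 96.6% and 96.5% of old members, against 8.94% and 8.92% of young and 18.6% and 22.2% of old other spots. Lyz2 was found in 8.72% and 11.9% of young and 51.7% and 62.4% of old members and Serpina3n in 12.8% and 10.5% against 53.8% and 66.7%. Cst7 was found in 1 of 149 and 0 of 143 young members, which for young 2 allows a share of up to 2.098% at that depth, and in 14.5% and 16.3% of old members. Without thinning Cst7 had a UMI in 1.33% and 2.67% of young members. Hspa1a went the other way, from 55.0% and 72.0% of young to 12.4% and 4.26% of old members, beside 8.63% and 7.68% of the old other spots. Without thinning the shares of C4b were 69.3% and 64.7% in young and 98.7% and 99.3% in old members. The shares count spots, not cells, and their limits cover counting error only.

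Markers of other cell types that could lie under the members were summed per section. The T and NK cell list (14 genes) reached 5.10 and 5.78 CPM in young, 12.3 and 18.9 in middle and 16.7 and 30.9 in old members, against 24.4 to 27.9 in the other spots. Gzmb, Gzmk and Trbc1 were at 0 in the members of all 6 sections, and the 1 gene tested, Ccl5, a chemokine, did not pass (1.76 CPM or less in young, 3.44 and 12.7 in old members, edgeR adjusted p = 0.11). Border macrophage genes (6) summed to 2.04 and 1.16 CPM in young and 7.51 and 11.96 in old members. Neutrophil genes (4) went the other way, with 4.08 and 5.78 CPM in young, 0.79 and 1.49 in middle and 1.16 and 0.997 in old members. The part of these cells in the rise of the immune genes was not tested.

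Choroid plexus genes, led by Ttr, reached 7525 CPM in middle 2 and 5728 in old 2, the sections of slide 2, and 1155 to 2243 CPM in the members of slide 1, against 2030 to 4334 in the other spots. Their part in the comparisons was not tested. Blood genes reached 45.4 CPM in old 2 and at most 10.4 in the members of the other 5 sections. The globin gene Hba-a2 passed between old and young (2.73, edgeR adjusted p = 0.031) and lost its call without young 1, young 2 or old 2 (3.90, 2.119 and 1.82). None of the endothelial (10), mural (6) and ependymal (6) genes tested passed by edgeR between old and young, with medians of -0.14, -0.32 and -0.086.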

How the data were processed

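Spatial RNA sequencing of 6 coronal sections gave UMI counts per gene and spot. The authors deposited raw counts. Per the file headers the matrices come from Space Ranger 1.3.1, while the submitters' processing notes give version 3.1 and the build mm10. Of 32285 gene identifiers 32235 matched GENCODE M21, from which positions were taken. Groups came from the labels, and no column was left unassigned.

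Spots under 500 UMIs were dropped, the 150 highest-scoring spots per section were summed, and sums were compared with edgeR 4.0.16 (TMM factors, filterByExpr, robust quasi-likelihood fit over all 6 sums, 3 residual degrees of freedom, Benjamini-Hochberg adjustment, threshold 0.05) in R 4.3.3. The difference between members and other spots was tested as an interaction with section as a block. CPM of single genes are TMM-scaled; list sums, rule genes, score ranks and ratios to other spots are scaled to 1000000 UMIs without TMM factors. The 5 rule genes were fitted but not counted or tested. Other work used Python 3.11.15, numpy 2.4.6, scipy 1.17.1, pandas 2.3.3 and matplotlib 3.10.9.

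On simulated counts in which 200 genes had a true log2 change of 1, the age test recovered 62.6% of them over 11454 genes and the interaction 57.2% over 12497. On average 5.04% and 6.09% of the simulated calls were false. The counts were drawn with a spread fitted as a trend over expression and without section or slide effects, so real recovery may differ. The interaction was simulated on fewer genes than the 17316 tested. Replicate sections differed beyond sampling noise (chi-square per degree of freedom 2.19 to 3.38), so none was a library deposited again; this does not show that sections came from separate animals. The totals of 1730313 to 2530212 UMIs limit precision for low genes.

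The members and gene lists were chosen with earlier results of these data known. Named were, per direction, called genes whose ages did not overlap and whose mean reached 10 CPM, largest change first (10 for old against young, 6 for the other comparisons), called genes of the lists, a fixed set always reported, and 12 leading genes without a test. Some genes that this rule names are not reported here. Alternatives were DESeq2 1.42.0, other factors and filters, other selections, thinning, slide or replicate blocks, and leaving out each section. The 0.2% neuronal limit and the neuronal covariate were chosen after seeing the data.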

Additional observations from a re-analysis of the deposited data

Results flagged for a closer look

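The change from 6 to 21 months differed between white matter and the other spots for these 12 genes (interaction term, log2, edgeR with adjustment over all genes). They are, in each direction, the 6 with the largest difference among genes that passed, had a mean of at least 10 CPM in members and had ratios of members to other spots that did not overlap between young and old. More positive in white matter were Serpina3n (2.49), Cd74 (2.07), C3 (2.04), Crlf2 (2.02), Lpl (1.93) and Lyz2 (1.84). More negative were Hspa1a (-1.99), Hspa1b (-1.96), Sgk1 (-1.25), Arl4d (-1.22), Itih3 (-1.13) and Ctps (-1.065). The 2 HSP70 genes share sequence and are uncertain apart. The C3 call was lost without young 1 or old 2 (0.90 and 1.70), that of Lpl without old 2 (1.496) and that of Ctps without old 2 (-1.01).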

How the results depend on the processing

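Of 4241 alternatives of 210 single-gene results, 3547 stayed on their side of the threshold, 548 no longer passed and 144 newly passed. Another 2 changed sign with a call in the main fit or the alternative. They were H2-D1 between middle and young without young replicate 1 (-0.51, against 1.08 without young replicate 2), and Hmgcs1 between middle and young with the neuronal share as a covariate (0.29). A change of sign without a call in either fit was counted among the 3547. The causes were not tested. The count of 235 genes between old and young was 98 with DESeq2, 460 with no filter on low counts, 147 in the 75 members with the lowest neuronal share, 33 with the neuronal covariate, and 93 to 274 leaving out 1 section. The count of 437 between middle and young was 123 with DESeq2, 145 and 1182 in the 75 and 300 highest-scoring spots, 74 in the 75 members lowest in neuronal share, 70 under the neuronal limit, 14 with the covariate, and 122 to 408 leaving out 1 section. The count of 23 between old and middle was 128 with no filter, 48 with the replicate block, 53 with slide as a block, 256 in the 300 highest-scoring spots, 51 in spots chosen by the share of other myelin genes, 5 under the neuronal limit, 12 with the covariate, 40 in a fit of only these ages, and 4 to 91 leaving out 1 section. The count of 363 for the difference between white matter and other spots was 177 with DESeq2, 223 with at least 10 counts in every sum, 115 with the newer quasi-dispersion, 180 with slide as a block, 159 and 196 in the 75 and 300 highest-scoring spots, 101 in the 75 members lowest in neuronal share, 165 under the neuronal limit, 99 after thinning to the smallest total, and 124 to 345 leaving out 1 section. The neuronal share was 0.120 percentage points higher in middle than in young members, and 0.078 to 0.214 in the alternatives. The deviations of same-numbered sections were not correlated over 0.1 (0.042, -0.034 and 0.055), although replicate 1 had the higher share of Malat1 (0.145%, 0.110% and 0.0775% against 0.0670%, 0.0428% and 0.0359%) and of mitochondrial UMIs at every age, and the replicate block gave 295, 493 and 48 genes for the age comparisons and 373 for the difference. Leaving out 1 section leaves an age with a single section, which is then assumed to vary like the others. Depth limits genes of a few UMIs, such as Itgax and Lcn2.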
